A study of Mus with 2 samples.

Results

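The nuclear genes of respiratory complexes III, IV and V were followed through every kind of cell captured from Id2+/+ and Id2-deleted mouse hematopoietic stem cell (HSC) sorts. They were taken by symbol: each row starting with Uqcr, Cox4, Cox5, Cox6, Cox7, Cox8 or Atp5, together with Cyc1, Cycs and Cox10, and without rows named as pseudogenes. This gave 46 genes of 27998 rows. By role, 9 belong to complex III, 18 to complex IV and 15 to complex V, and 1 is the electron carrier cytochrome c (Cycs). Another 1 is the farnesyltransferase Cox10, which makes a precursor of the heme that complex IV needs. The last 2 (Atp5s and Atp5sl) carry an Atp5 name although RefSeq now lists them as Dmac2l and Dmac2.

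Complex III (cytochrome bc1) passes electrons from ubiquinol to cytochrome c, complex IV (cytochrome c oxidase) passes them on to oxygen, and both pump protons across the inner mitochondrial membrane. Complex V (ATP synthase) lets the protons flow back through its Fo part, which stalks join to the F1 part, where ATP is made. Quiescent HSCs are known for low mitochondrial respiration and a large reliance on glycolysis, whereas dividing progenitors and erythroid precursors depend more on respiration, and the core of each complex is encoded partly in mitochondrial DNA and partly, as here, in the nucleus.

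The study compared HSCs of Mx1-Cre mice that kept Id2 (Id2+/+) with HSCs of Mx1-Cre mice in which Id2, an inhibitor of E-protein transcription factors, had been deleted (labelled ID2Δ/Δ). Both groups carried the interferon-inducible Cre, which is driven by a promoter active in many tissues besides blood, so deletion was not limited to HSCs, and both were studied after poly(I:C) treatment. Tibias and fibulas of 5 mice per genotype, aged 8 to 12 weeks, were pooled, and Lin- Sca-1+ c-Kit+ FLT3- CD150+ CD48- cells were sorted (1000 per genotype by the labels) and captured on the 10x Chromium. Each genotype is therefore 1 library without a replicate: no test between genotypes was possible, no p-value is given, and genotype, library and pool of mice cannot be told apart.

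The Id2+/+ and Id2-deleted libraries held 8612217 and 17140713 unique molecular identifiers (UMIs), of which 349 and 632 barcodes were called as cells and 333 and 625 passed the limit on mitochondrial RNA; 1 barcode was called in both. Cells were divided by markers into retained cells (262 and 416), erythroid-like cells (35 and 156), neutrophil-like cells (27 and 40) and haemoglobin-rich cells (9 and 13). Against the sort label, HSC markers summed to 1208 and 918 CPM (UMIs scaled to the same total in each group of cells) in retained cells but to 202 and 182 in erythroid-like cells, where erythroid markers reached 13616 and 13035 CPM. Within retained cells, platelet markers were higher in the Id2-deleted library (1433 and 2164 CPM), and erythroid (1394 and 961), neutrophil (1073 and 641) and B cell markers (90.5 and 44.8) were lower. For the Id2-deleted sample, a line of the protocol label names Id2+/+ mice as the source of the bones, whereas its title and genotype give the deletion. Id2 itself had 22 UMIs (10.3 CPM) in Id2+/+ retained cells and 0 in Id2-deleted ones, where a floor of 3 UMIs is 0.640 CPM. Median depth was 7081 and 9663 UMIs per retained cell, and 37549 and 40038.5 per erythroid-like cell.

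The share of RNA in these genes differed between kinds of cell. The 46 genes took 1.71% of UMIs in Id2+/+ retained cells (95% exact interval 1.69 to 1.73) and 2.05% in Id2-deleted ones (2.04 to 2.07). Erythroid-like cells gave 2.65% and 2.78%, and neutrophil-like cells 2.24% and 2.31%. Haemoglobin-rich cells gave 0.254% and 0.245% of all UMIs, and 1.97% and 2.09% once haemoglobin UMIs were left out. Summed as a whole, the retained cells of both libraries were thus below erythroid-like and neutrophil-like cells of their own library. All intervals here cover counting error only and not differences between mice or captures. Of the 46 genes, 31 (Id2+/+) and 32 (Id2-deleted) stood among the 500 genes with most UMIs in retained cells, and 35 and 36 in erythroid-like cells.

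The medians per cell gave the same order of kinds. In Id2+/+ retained cells the median share per cell was 1.56% (quartiles 1.41 and 1.80), and in Id2-deleted retained cells it was 1.93% (1.69 and 2.16). For erythroid-like cells the medians were 2.62% and 2.76%, and for neutrophil-like cells 2.22% and 2.36%. Single cells overlapped between kinds: the 90th percentile of Id2-deleted retained cells was 2.44%, above the neutrophil-like median. The quartile ranges of the 2 genotypes overlapped among retained cells, and cells of 1 library are not replicates of a genotype.

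**Figure D1:**
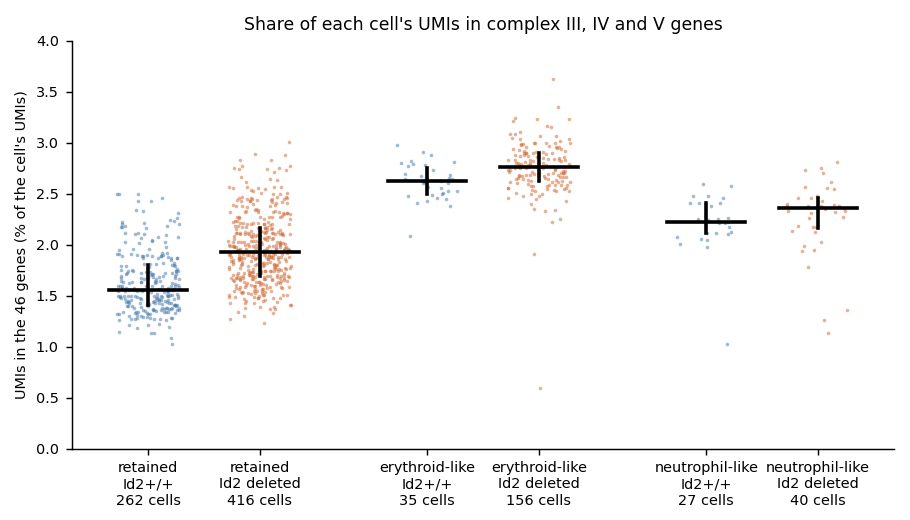
Share of a cell's UMIs (percent, vertical axis) in the 46 genes, with 1 point per cell, by kind of cell and library; black bars are the median and quartiles. Id2+/+ retained cells had a median of 1.56% and Id2-deleted retained cells 1.93%, both under the erythroid-like medians of 2.62% and 2.76%.

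The main question was how the genes differed between Id2-deleted and Id2+/+ retained cells. Summed over the 46 genes, CPM was 1.201 times as high in the Id2-deleted library (interval 1.19 to 1.22). Complex III was at 1.26 (1.22 to 1.29), followed by complex IV at 1.2001 (1.18 to 1.22) and complex V at 1.18 (1.16 to 1.21), while cytochrome c was at 1.03 (0.918 to 1.15). Differences between the complexes were not tested. Within complex V, the catalytic F1 part (1.14, 1.11 to 1.17) was below the Fo part and stalks (1.22, 1.19 to 1.25).

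Of the 46 genes, 41 had at least 20 UMIs over both libraries. Among these, 24 were at least 1.2-fold higher in the Id2-deleted library and 0 at least 1.2-fold lower, whereas over all 10458 genes of that abundance 16.6% were higher and 32.1% lower. The comparison with abundant genes is closer, since lowly counted genes scatter more: 36 of the 46 genes averaged at least 100 CPM, of which 21 were higher and 0 lower, against 21.9% higher and 10.2% lower among 1558 genes of that level. In 31 of the 36 the interval of the ratio lay above 1 and in 1 below it, against 39.9% and 15.3% of the 1558 genes. The median log2 ratio was 0.28 for the 41 genes, -0.08 for all genes and 0.10 for the abundant ones. With scaling by trimmed mean of M-values (TMM) the medians became 0.39 for these genes and 0.02 for all, and 33 were higher and 0 lower. The shares of all genes past 1.2-fold were taken with CPM scaling only.

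**Figure D2:**
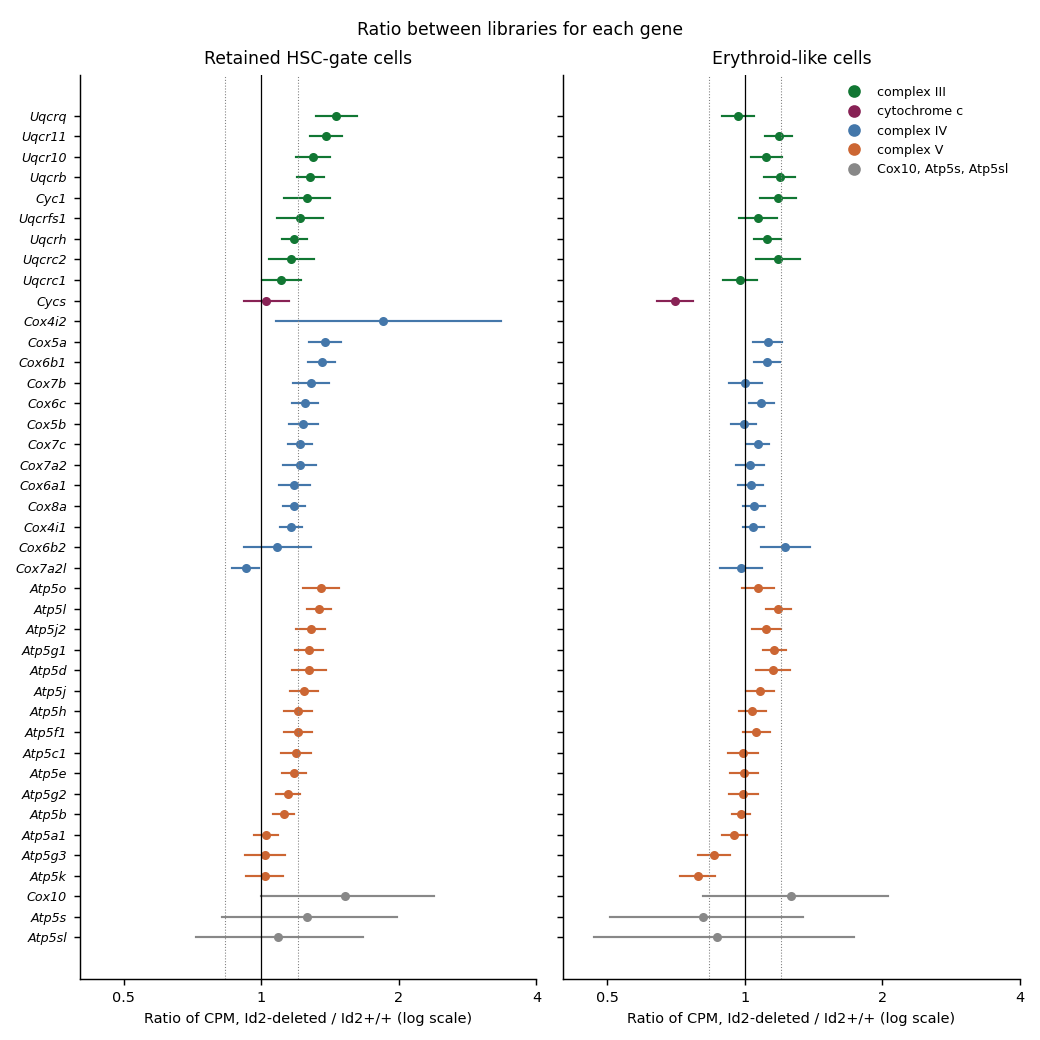
Ratio of CPM, Id2-deleted over Id2+/+ (log axis), for each gene with at least 20 UMIs, in retained and erythroid-like cells, with 95% counting intervals; dotted lines mark 1.2-fold in either direction. Retained cells had 24 genes beyond the upper line and 0 beyond the lower, and erythroid-like cells 2 and 3.

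All 9 genes of complex III had ratios over 1 (1.11 to 1.46), and 6 reached 1.2-fold. The largest was that of Uqcrq, a small subunit of the complex, with 228 CPM in Id2+/+ and 333 CPM in Id2-deleted retained cells (ratio 1.46, 1.32 to 1.62). It lies at chr11:53427922-53430831 (mm10, RefSeq) and overlaps Gdf9; whether their reads were told apart depends on strand, whose use in the counting is not given in the sources used here. Uqcrh, the acidic hinge subunit, had the most UMIs of the complex, at 647 and 764 CPM (1.18, 1.11 to 1.26). Cyc1, the cytochrome c1 heme subunit at chr15:76343513-76346260, had 193 and 243 CPM. Uqcrc1, a core subunit, was the lowest of the complex at 267 and 295 CPM (1.11, 1.002 to 1.22), with a lower bound just over 1. The small subunits Uqcr11, Uqcr10 and Uqcrb lay between, at 1.39, 1.30 and 1.28.

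Cycs did not follow the complexes it connects. Its level was 216 CPM in Id2+/+ and 222 CPM in Id2-deleted retained cells, a ratio of 1.03 whose interval (0.918 to 1.15) excluded the summed ratio of complex III. Over 18 other ways of processing the counts its ratio ran from 0.827 to 1.10, on both sides of 1. The protein also serves as a trigger of apoptosis when released from mitochondria.

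In complex IV, 8 of 13 genes with enough UMIs were higher by 1.2-fold and 0 lower. Cox8a, a small subunit with the most UMIs of the complex in Id2-deleted retained cells, had 846 and 998 CPM (1.18, 1.12 to 1.25). Cox4i1, the common form of subunit 4, gave a ratio of 1.16, and Cox5a and Cox6b1 gave 1.38 and 1.36. The extremes of the complex were both genes with special forms. Cox4i2, the alternative form of subunit 4 known from lung and from low oxygen, had only 17 and 69 UMIs (7.97 and 14.7 CPM; 1.85, 1.08 to 3.35), and it lies at chr2:152753916-152765039, overlapping Gm32057 and Bcl2l1. Cox7a2l, which helps join complexes III and IV into supercomplexes, was the 1 gene below equality, with 604 and 558 CPM (0.923, 0.863 to 0.988). This direction was not stable: its ratio ran from 0.906 to 1.09 over the alternatives, with 0.994 under TMM scaling and 1.07 in clusters with high HSC markers. Cox10, at chr11:63962627-64079472, had 29 and 97 UMIs (13.6 and 20.7 CPM), and the interval of its ratio of 1.52 (0.997 to 2.39) included equality. It overlaps 9630013K17Rik and Gm51866.

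In complex V, 8 of 15 genes were higher by 1.2-fold, 7 of 10 in the Fo part and stalks and 1 of 5 in F1, while the interval lay above 1 in 8 of 10 and 4 of 5. Several of them lay near the limit: Atp5f1 (1.202) and Atp5h (1.202) of the stalks were just past it, and Atp5c1 (1.189) and Atp5e (1.178) of F1 just short of it. Atp5o, the stalk protein that confers oligomycin sensitivity, had 297 and 401 CPM (1.35, 1.23 to 1.48), and Atp5l, the membrane subunit g, gave 1.34 (1.26 to 1.42). Atp5b, the catalytic beta subunit with the most UMIs of the complex, had 980 and 1096 CPM (1.12, 1.06 to 1.18). Atp5a1, the alpha subunit that forms the F1 head with it, stood at 1.02, and so did Atp5k (subunit e; 299.5 and 304 CPM, interval 0.925 to 1.12) and Atp5g3, 1 of 3 genes for the c-ring. The genes for partner subunits thus differed unequally between libraries, and the last 3 ratios lay on either side of 1 across alternatives.

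Retained cells of the 2 libraries also differed in how they spread over clusters, which cannot be told apart from genotype. The cluster led by Meg3 and Fos held 159 of 262 Id2+/+ cells, whereas the cluster led by Cd74 held 175 of 416 Id2-deleted cells. Within clusters the ratio of the 46 genes was 1.18 (1.11 to 1.25) in the Cd74 cluster, 1.15 (1.11 to 1.199) in the Hist1h2bc cluster, 1.11 (1.06 to 1.16) in the Meg3 cluster and 1.08 (1.04 to 1.12) in the Pf4 cluster. It was 1.02 in both the Vpreb3 (0.988 to 1.06) and the Ccl5 cluster (0.936 to 1.12, with 3 Id2-deleted cells). The other comparisons also had few cells on 1 side. The Cd74, Hist1h2bc, Pf4 and Vpreb3 clusters held 14, 19, 9 and 14 Id2+/+ cells, and the Meg3 cluster 17 Id2-deleted cells. Each within-cluster ratio was therefore below the 1.201 of all retained cells, and 2 of the 6 intervals included 1. Complex III ranged from 1.08 to 1.27 over these clusters. With retained cells clustered again by themselves, the cluster led by Vpreb3 held 1 Id2+/+ and 83 Id2-deleted cells. The clusters led by Meg3 (169 cells) and Ccl5 (69 cells) then held Id2+/+ cells only. That led by Pf4 (65 cells) held Id2-deleted cells only. The ratios within the Vpreb3, Meg3, Ccl5 and Pf4 clusters thus rest on the first clustering. Without the Vpreb3, Pf4 and Ccl5 clusters of the first clustering (192 and 252 cells left), a choice made after seeing the data, the summed ratio was again 1.201. Then 22 genes were higher and 0 lower, and the median log2 ratio was 0.28, against -0.06 over all genes.

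The share also moved with depth, and among retained cells with cell cycle genes. Across retained cells it correlated with log10 UMIs at r = 0.65 (Id2+/+, 262 cells) and 0.64 (Id2-deleted, 416 cells), values that share the cell's own total. With the share of S, G2 and M-phase genes it correlated at r = 0.57 and 0.50 in retained cells, but at -0.04 (35 cells) and -0.51 (156 cells) in erythroid-like cells. In the shallower and deeper cells of each library the median share was 1.47% and 1.76% in Id2+/+, and 1.75% and 2.11% in Id2-deleted cells. These classes were divided at each library's own median and do not match in depth: the shallower cells had medians of 5798 and 7758 UMIs, and the deeper ones of 9463 and 12768. With cells thinned to 5800 UMIs the summed ratio was 1.17 and 18 genes were higher by 1.2-fold, but this left out 66 of 262 Id2+/+ cells, the shallowest, and 0 of 416 Id2-deleted ones. S-phase genes took 0.315% of retained-cell UMIs in Id2+/+ and 0.385% in Id2-deleted, and G2 and M-phase genes 0.335% and 0.425%. With only cells low in cycle genes the summed ratio was 1.18 and 15 genes were higher by 1.2-fold. Median log2 ratios were 0.22 with thinned and 0.23 with low-cycle cells, against -0.04 over all genes in each. No share of all genes past 1.2-fold was taken there. Stress-response genes took 0.298% and 0.206% of UMIs. The part of stress in the result was not tested.

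Both libraries pooled male and female cells, in unequal numbers. With cells carrying Xist and no Y-linked RNA the median share was 1.67% in Id2+/+ (84 cells) and 1.91% in Id2-deleted (231 cells), and with cells carrying Y-linked and no Xist RNA it was 1.499% (93 cells) and 1.94% (90 cells). In the former the summed ratio was 1.13, with 10 genes higher and 1 lower (Cycs, 0.827). In the latter it was 1.24, with 25 higher and 0 lower. Median log2 ratios were 0.20 and 0.33, against -0.03 and -0.06 over all genes. No share of all genes past 1.2-fold was taken in these subsets. The direction of the summed ratio thus held in both while its size did not.

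RNA outside cells differed in the same direction. In barcodes of 1 to 100 UMIs, taken as empty droplets, the 46 genes made up 2.31% of UMIs in the Id2+/+ library and 2.94% in the Id2-deleted one, a ratio of 1.27 (1.26 to 1.28). By group this was 1.34 for complex III, 1.40 for complex IV, 1.24 for cytochrome c and 1.16 for complex V, with F1 at 0.897 and the Fo part and stalks at 1.42. Free RNA was estimated at 10.5% and 5.41% of retained-cell UMIs, and with its profile subtracted the ratio in retained cells was 1.22. The libraries therefore differed in these genes also where no cell was called.

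**Figure D3:**
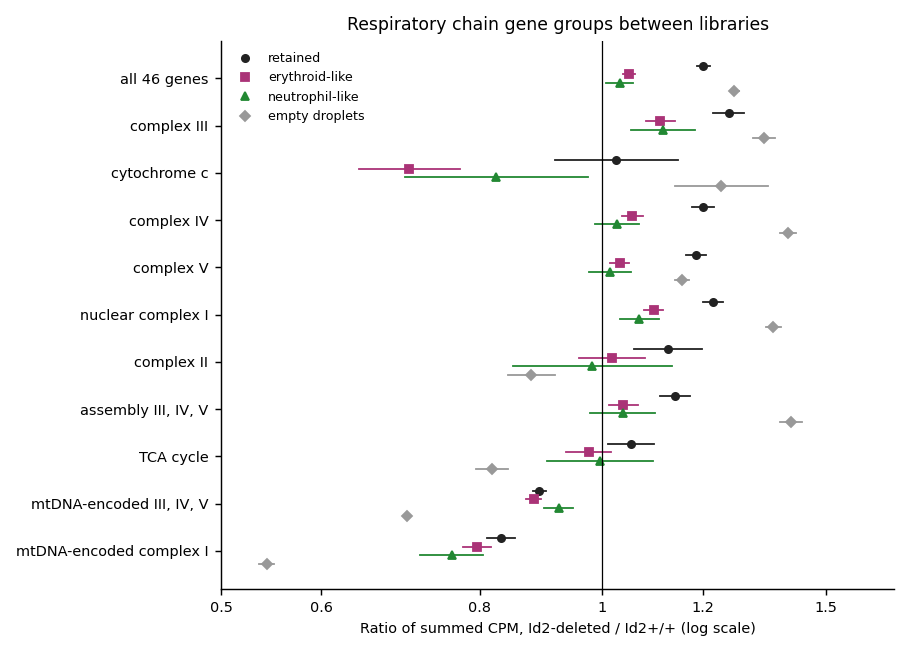
Ratio of summed CPM, Id2-deleted over Id2+/+ (log axis), for gene groups in retained cells, erythroid-like cells, neutrophil-like cells and empty droplets, with 95% counting intervals. Complex III was above 1 in all 4 (1.26, 1.11, 1.12 and 1.34), whereas cytochrome c was at 1.03, 0.704, 0.825 and 1.24.

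Among erythroid-like cells the 2 libraries were closer. The summed ratio was 1.05 (1.04 to 1.06), with complex III at 1.11 (1.08 to 1.14), complex IV at 1.06, complex V at 1.03 and cytochrome c at 0.704 (0.643 to 0.771). Of 40 genes with enough UMIs, 2 were at least 1.2-fold higher and 3 at least 1.2-fold lower, against 19.1% and 26.0% of 8790 genes. Among the 37 averaging 100 CPM or more, 1 was higher and 2 lower, against 10.6% and 6.54% of 1576 genes, while the interval lay above 1 in 16 and below it in 3, against 28.8% and 9.26%. The median log2 ratio was 0.07, against -0.03 over all genes and 0.09 over the abundant ones. TMM scaling moved the all-gene median to 0.19 and that of the respiratory genes to 0.29, with 23 higher and 1 lower. The shares of all genes past 1.2-fold were not taken under TMM scaling. The distance of the respiratory genes from all genes thus stayed small, and their count over 1.2-fold rested on the scaling. The cells came from different clusters: 27 of 35 Id2+/+ cells lay in a cluster led by Hist1h2ap that held no Id2-deleted cell, and 81 of 156 Id2-deleted cells in a cluster led by Mt2 that held no Id2+/+ cell.

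Cycs was the exception in size. It had 464 CPM in Id2+/+ and 327 CPM in Id2-deleted erythroid-like cells, and its ratio ran from 0.677 to 0.907 over the 18 alternatives, below 1 in each. Atp5k (0.788, 0.723 to 0.861) and the c-ring gene Atp5g3 (0.854, 0.788 to 0.927) were the other 2 with intervals below 1, and both stayed below 1 in all 18 alternatives. The third gene beyond 1.2-fold downward, Atp5s, had few UMIs and an interval of 0.507 to 1.34. Cox6b2 (1.23, 1.09 to 1.39) and Cox10 (17.4 and 22.0 CPM; 1.26, 0.808 to 2.06) were the 2 beyond 1.2-fold upward, and each fell on the other side of 1 in 1 alternative.

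The remaining named genes differed little here. Cyc1 had 407 and 481 CPM (1.18, 1.08 to 1.30), Uqcrb 585 and 697 CPM (1.19, 1.10 to 1.29) and Atp5l 893 and 1057 CPM (1.18, 1.11 to 1.26), and these 3 had intervals above 1. Uqcr11 had the most UMIs of complex III, at 751 and 890 CPM. Uqcrq, the complex III gene with the largest ratio in retained cells, was at 552 and 533 CPM (0.965) in erythroid-like cells. Cox4i1, with the most UMIs of complex IV, was at 1288 and 1343 CPM (1.04), and Atp5b at 1832 and 1800 CPM (0.982). For Uqcrq and Atp5b the direction turned under TMM scaling, to 1.12 and 1.14.

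Within each library, erythroid-like cells could be set against retained cells of the same capture. The summed CPM of the 46 genes was 1.55 times as high in erythroid-like cells of the Id2+/+ library (1.53 to 1.57) and 1.35 times in the Id2-deleted one (1.34 to 1.36). Complexes III, IV and V gave 1.60, 1.56 and 1.51 in Id2+/+ and 1.41, 1.37 and 1.31 in Id2-deleted. In Id2+/+, 25 of 40 genes were at least 1.5-fold higher and 2 lower, against 18.3% and 39.7% of 9231 genes. In Id2-deleted, 12 of 41 were higher and 3 lower, against 17.4% and 40.8% of 10501 genes. Among genes averaging at least 100 CPM, 25 of 37 were higher and 1 lower in Id2+/+ (27.9% and 15.8% of 1535 genes), and 12 of 37 higher and 1 lower in Id2-deleted (24.6% and 14.3% of 1558 genes). Median log2 ratios were 0.70 and 0.44, against -0.27 and -0.30 over all genes, and under TMM scaling 0.93 and 0.78 against -0.03 and 0.04. In Id2-deleted, 30 genes were higher and 2 lower with TMM, for which no share of all genes was taken. The counts of the 2 libraries were not tested against each other.

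The genes at either end were taken by their mean log2 ratio over both libraries. Cox6b2, a subunit form known from testis, had ratios of 2.50 (2.09 to 3.01) in Id2+/+ and 2.83 (2.56 to 3.14) in Id2-deleted. Atp5g1, a c-ring gene, had 2.23 and 2.04, and Cyc1 2.11 and 1.98. Cytochrome c (2.15 and 1.47) and Uqcrq (2.42 and 1.60) gave smaller ratios in Id2-deleted: for Cycs it was the erythroid-like level that was lower there (327 against 464 CPM), and for Uqcrq the retained level that was higher (333 against 228 CPM). At the other end Cox7a2l was lower in erythroid-like cells, at 0.522 (0.466 to 0.584) and 0.555 (0.523 to 0.589). Atp5sl was at 0.619 (0.300 to 1.203) and 0.495 (0.344 to 0.707), and the c-ring gene Atp5g2 at 0.982 and 0.853. Cox4i2 had 0 UMIs in erythroid-like cells of both libraries; taking a floor of 3 UMIs over each group (2.27 and 0.475 CPM), it was at least 3.50-fold lower in Id2+/+ and at least 31.0-fold lower in Id2-deleted. It was the only 1 of the 46 genes among the 2000 variable genes by which cells were clustered.

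**Figure D4:**
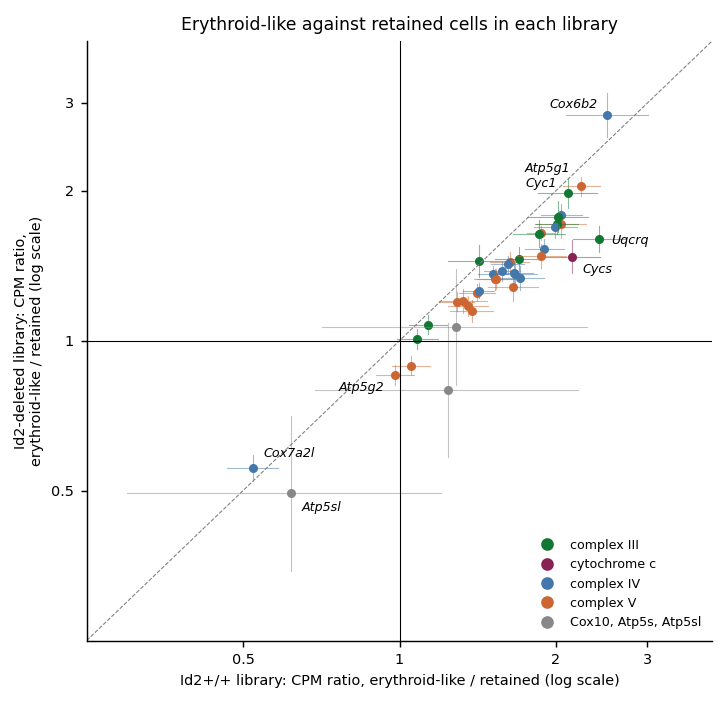
Ratio of CPM in erythroid-like over retained cells for each gene, in the Id2+/+ library (horizontal, log axis) and the Id2-deleted library (vertical, log axis); thin lines are 95% counting intervals and the dashed line marks equal ratios. Cox6b2 lies highest at 2.50 and 2.83, and Cox7a2l lowest among abundant genes at 0.522 and 0.555.

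Several subunits have alternative genes, and their split differed between kinds of cell in both libraries. In the Cox7a group (Cox7a1, Cox7a2 and Cox7a2l), Cox7a2l took 62.2% of UMIs in Id2+/+ and 55.6% in Id2-deleted retained cells. It took 30.1% and 29.1% in erythroid-like cells and 28.2% and 28.6% in neutrophil-like cells. Nearly all the rest was Cox7a2, the form found in most tissues; Cox7a1, the heart and muscle form, had 0 to 3 UMIs. For the c-ring, Atp5g1, Atp5g2 and Atp5g3 took 33.1%, 47.6% and 19.3% in Id2+/+ retained cells and 36.2%, 46.8% and 17.0% in Id2-deleted ones. In erythroid-like cells these were 46.1%, 29.2% and 24.7%, and 51.7%, 27.9% and 20.4%. The most frequent c-ring transcript was thus Atp5g2 in retained cells and Atp5g1 in erythroid-like cells of both libraries, as it was in neutrophil-like cells (49.5% and 53.6% Atp5g1). The 3 genes encode the same mature peptide with different import sequences.

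For subunit 6b, Cox6b2 took 15.3% and 12.6% of the Cox6b UMIs in retained cells, 21.5% and 23.1% in erythroid-like cells and 9.82% and 8.27% in neutrophil-like cells. In empty droplets it took 22.4% and 21.4%. For subunit 4, Cox4i2 took 0.928% (exact interval 0.542 to 1.48) and 1.47% (1.14 to 1.86) in retained cells, and in erythroid-like cells it had 0 UMIs, bounded above by the floor of 3 UMIs. Empty droplets held Cox4i2 at 1.51 and 2.60 CPM, under its 7.97 and 14.7 CPM in retained cells, and neutrophil-like cells had 0 and 1 UMI. In the Meg3 cluster Cox4i2 had 10 UMIs in Id2+/+ (9.36 CPM, 4.49 to 17.2) and 6 UMIs in Id2-deleted cells (45.8 CPM, 16.8 to 99.7). The Cd74, Vpreb3, Hist1h2bc and Pf4 clusters gave 10.2 to 16.3 CPM in Id2-deleted cells, from 6 to 21 UMIs, and the Ccl5 cluster 12.1 CPM (4.46 to 26.4) in Id2+/+ cells, from 6 UMIs. In the Id2+/+ library the Vpreb3 cluster had 1 UMI and the Cd74, Hist1h2bc and Pf4 clusters 0, from 9 to 19 cells each, and the 3 Id2-deleted cells of the Ccl5 cluster had 0. With counts this low no difference is read within clusters, the Meg3 cluster included. Subunits 7b and 8 came from Cox7b and Cox8a alone, and the forms Cox7b2, Cox8b and Cox8c had 0 UMIs in retained and erythroid-like cells.

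Clusters of cells showed how Cox7a2l and Cycs ran against each other. In the Cd74, Meg3 and Hist1h2bc clusters, Cox7a2l was at 784, 702 and 684 CPM in Id2+/+ and at 751, 816 and 629 CPM in Id2-deleted cells. In the same clusters Cycs was at 109, 137 and 115 CPM, and at 139, 107 and 154 CPM. Going to the Vpreb3 and Pf4 clusters, Cox7a2l was at 433 and 307 CPM in Id2+/+ (454 and 370 in Id2-deleted), and Cycs at 402 and 440.0 CPM (243 and 343). The neutrophil-like cluster and the erythroid-like clusters led by Mt2 and Hist1h2ap had Cox7a2l at 268 to 323 CPM, near the Pf4 cluster, and Cycs at 359 to 554 CPM. The Ccl5 cluster lay between in Id2+/+ cells, with Cox7a2l at 482 CPM and Cycs at 312 CPM, and its 3 Id2-deleted cells gave 597 and 37.3 CPM, the latter from 1 UMI. The 3 clusters with the most Cox7a2l were thus low in Cycs in both libraries. In Id2+/+ they also had the lowest summed shares of retained clusters, 1.49% to 1.83%, and in Id2-deleted the Hist1h2bc cluster, at 2.11%, was above the Vpreb3 cluster, at 2.04%. The Pf4 cluster had the highest, 2.24% and 2.42%, where neutrophil-like cells had 2.24% and 2.31%. Between libraries Cycs was lower in Id2-deleted cells of the Vpreb3 cluster (0.604, 0.461 to 0.802), which held 14 Id2+/+ cells. In the Pf4 cluster, with 9 Id2+/+ cells, the interval included 1 (0.780, 0.601 to 1.03).

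**Figure D5:**
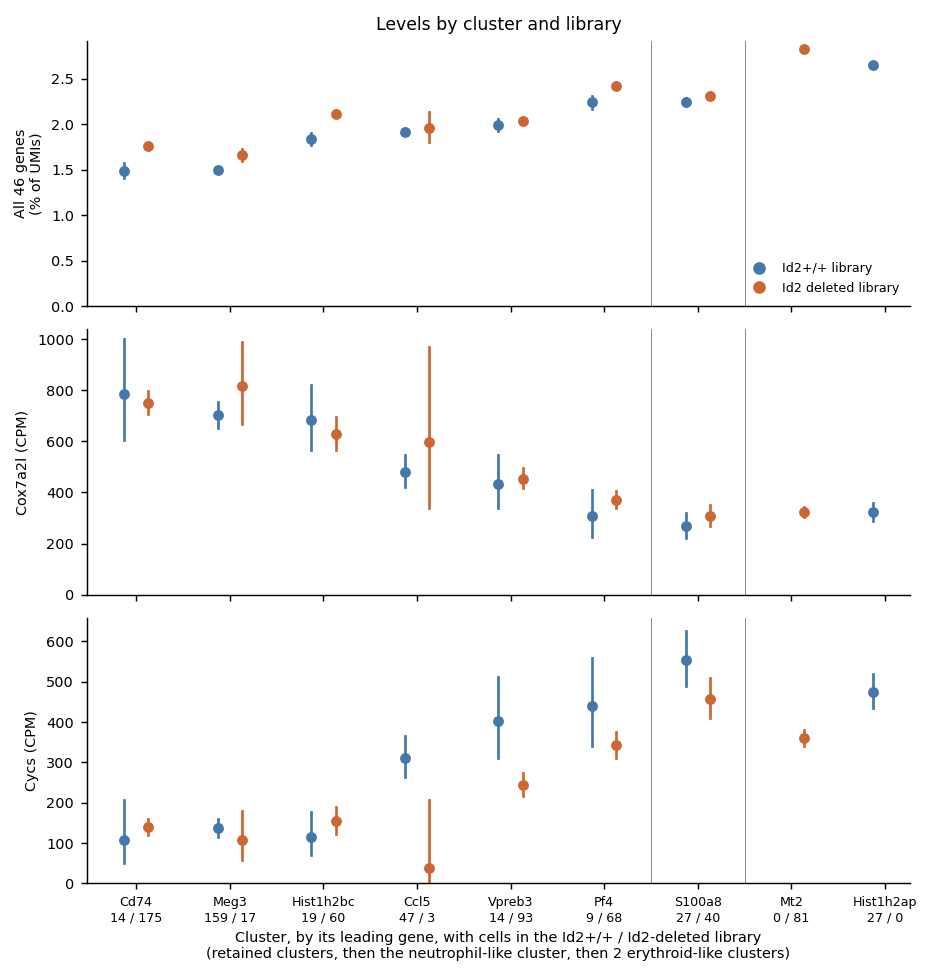
Summed share of the 46 genes (percent of UMIs), Cox7a2l (CPM) and Cycs (CPM) in 9 clusters of cells, for the Id2+/+ and the Id2-deleted library, with 95% counting intervals. Cox7a2l is highest in the Cd74, Meg3 and Hist1h2bc clusters (629 to 816 CPM), in which Cycs lies at 107 to 154 CPM.

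Neutrophil-like cells, few in both libraries, differed little between them. The summed ratio was 1.03 (1.01 to 1.06), with complex III at 1.12, complexes IV and V at 1.03 and 1.01, and cytochrome c at 0.825 (0.698 to 0.974). Cycs was at 554 and 457 CPM there, and Atp5k at 491 and 380 CPM (0.773, 0.646 to 0.926), so these 2 genes had ratios below 1 in both erythroid-like and neutrophil-like cells. Against retained cells of the same library, the summed level was 1.31 times as high in Id2+/+ and 1.13 times in Id2-deleted neutrophil-like cells, with Cycs at 2.57 and 2.06. Cox7a2l was lower, at 0.444 and 0.553, and so was Uqcrh, at 0.820 and 0.696.

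Other genes of the respiratory chain were read beside these as lists. Nuclear genes of complex I, the NADH dehydrogenase, differed alike in retained cells: 24 of 37 were at least 1.2-fold higher in Id2-deleted cells and 0 lower, with a summed ratio of 1.22 and a median log2 ratio of 0.29. Of the 4 genes of complex II, succinate dehydrogenase, Sdhb (1.21) and Sdhc (1.23) were higher by the same measure and 0 lower. The shares over all genes in retained cells, given above, were 16.6% higher and 32.1% lower. In erythroid-like cells, where they were 19.1% and 26.0%, complex I had 1 higher and 0 lower, with a summed ratio of 1.10. In retained cells, of 33 assembly factors of complexes III, IV and V, 12 were higher and 6 lower, with a median log2 ratio of 0.02 and a summed ratio of 1.14 (1.11 to 1.17); Uqcc2, Atpif1 and Coa3 (each 1.30) were examples of the former, and Cox17 (0.693), Cox11 (0.607) and Cox15 (0.470) of the latter, all picked after their values were seen. Of 13 genes of the tricarboxylic acid cycle 0 were higher and 2 lower (Cs 0.732, Dlst 0.760), with a summed ratio of 1.05 (1.01 to 1.098). Of 11 regulators of mitochondrial biogenesis 3 were higher (Nrf1 1.31, Tfam 1.24, Tfb1m 1.59) and 2 lower (Esrra 0.646, Polrmt 0.759), with a summed ratio of 1.05 (0.966 to 1.15).

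The subunits of the same complexes encoded in mitochondrial DNA went the other way. In retained cells the 6 transcripts for complexes III, IV and V summed to 0.891 times the Id2+/+ level in the Id2-deleted library, and all 6 intervals lay below 1. The ratio of mt-Co3, an oxidase subunit, was 0.861 and that of mt-Co2 0.926, and mt-Atp8, which overlaps mt-Atp6, was at 0.542, the 1 gene beyond 1.2-fold. UMIs of the 46 nuclear genes divided by UMIs of the 6 mitochondrial ones came to 0.849 (0.838 to 0.861) in Id2+/+ and 1.14 (1.13 to 1.16) in Id2-deleted retained cells. The quotient was 1.44 and 1.71 in erythroid-like cells, 1.13 and 1.26 in neutrophil-like cells and 0.569 and 1.03 in empty droplets. It was higher in the Id2-deleted library each time, empty droplets included, where it differed most. Mitochondrial RNA made up 2.45% and 2.16% of UMIs in retained cells and 5.49% and 3.63% in empty droplets, and a limit on this RNA was part of how cells were chosen.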

How the data were processed

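The deposited files hold raw UMI counts per gene and barcode, made by the authors with Cell Ranger 2.2.0 on mm10 according to the submitters' processing notes; whether reads were assigned by strand is not given in the sources used here. Cells were barcodes whose UMIs reached 10% of the 99th percentile among each library's top 1000 barcodes, with under 10% mitochondrial UMIs. Both libraries were clustered together with scanpy 1.11.5 (2000 variable genes, 20 components, 15 neighbours, Leiden resolution 1), and clusters with at least 4 markers of another cell type and lower HSC markers were taken out. UMIs were summed per library and kind of cell and scaled to CPM. Intervals are 95% exact (Poisson, Clopper-Pearson, or conditional for ratios; scipy 1.17.1, checked on simulated data). TMM factors came from edgeR 4.0.16. Doublets were scored with Scrublet, which marked 2 and 1 cells; none were removed in the values given. The 46 genes were matched to RefSeq (GRCm38.p6), 3 of them by synonym; 13 overlap another gene. The members and gene lists were chosen with earlier results of these data known. Genes named with full values were Cox10 and Cyc1, per group the most abundant member and the highest and lowest ratio, the 3 highest and 3 lowest ratios of erythroid-like over retained cells, and the paralogue groups; further genes were named after their values were seen. The pseudogene row Gm11273 (Cox5b-ps) was left out. It had 148 and 101 UMIs in retained cells. Alternatives were 18 settings, listed with earlier results known, and cell subsets added later. Of the erythroid-like clusters, 1 is part of all sums but is not reported singly here.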

Additional observations from a re-analysis of the deposited data

How the results depend on the processing

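Each genotype is 1 library, so depth and counting set the precision within a library and nothing measures the spread between mice. No paired analysis was possible because 1 library stands for each genotype. Beside the values reported for retained cells (1.201, with 24 genes higher), erythroid-like cells (1.05, with 2 higher) and erythroid-like over retained cells (1.55 with 25 higher in Id2+/+, 1.35 with 12 higher in Id2-deleted), the summed ratios under TMM scaling were 1.29, 1.21 (23 higher), 1.82 and 1.71 (30 higher). With the empty-droplet profile subtracted these were 1.22 for retained cells, and 1.62 and 1.39 for erythroid-like over retained cells. Thinned counts gave 1.17 for retained cells, 7 genes higher in erythroid-like cells and 1.39 for Id2-deleted erythroid-like over retained cells. Cells with Xist gave 1.13 (10 higher), 1.03, 1.45 and 1.32, and cells with Y-linked RNA 1.24, 1.02 (7 higher), 1.67 and 1.38, with complex V of erythroid-like cells turned to 0.977. Cells low in cycle genes gave 1.18 (15 higher), 1.07 (9 higher), 1.76 and 1.60 (26 higher). Clusters with high HSC markers alone, a choice made after seeing the data, gave 1.17 (14 higher) for retained cells, and 1.78 and 1.59 (24 higher) for the last 2. Without the Vpreb3, Pf4 and Ccl5 clusters, also chosen after seeing the data, 28 and 21 genes were higher in the last 2. Without the mitochondrial limit erythroid-like cells gave 1.07 (5 higher) and Id2+/+ erythroid-like over retained cells 1.52. For the last 2 comparisons the mean of single-cell CPM gave 1.61 and 1.41, and leaving out the deepest 5% of cells 1.60 and 1.40. The last alone was 1.33 without mitochondrial, ribosomal and haemoglobin genes, 1.37 with as many cells as the labels state and 1.37 with at least 1000 UMIs and 500 genes. The shares of all genes past the fold were not taken for these alternatives, so their counts of genes have no such share beside them. The summed ratios of all 46 genes stayed above 1 in the alternatives run, and the cause of these shifts was not tested.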
